A study of Mus musculus with 29 samples.

Results

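Troponin I of heart muscle, which Tnni3 encodes, and cardiac myosin-binding protein C, from Mybpc3, were both found among the RNAs of the mouse ovary, together with 6 further genes of the cardiac-type sarcomere, the contractile unit of heart muscle. The 8 genes, of 51912 gene IDs in the count table, were Tnni3, Mybpc3, Tnnt2, Tnnc1, Actc1, Myl7, Myh6 and Myh7. They were listed by name. The list was drawn up because Tnni3 and Mybpc3 had higher values in ovaries without Cdkn1b than in wild type, so the genotype values of these genes are described below, and nothing is read from how many of them a genotype test called. The 29 libraries came from papain-dissociated whole ovaries of mice that were wild type (Cdkn1b +/+) or null (Cdkn1b -/-) for the gene of the cell cycle inhibitor p27Kip1. The ages were 13.5 and 18.5 days of embryonic life (E13.5 and E18.5), day 8 after birth (PND8) and 12 weeks (12wk). Wild-type libraries numbered 4 at each age, and null libraries 3 at each age except E18.5, which had 4. The labels give no strain and do not say whether libraries of a group came from separate animals, so the p-values measure the spread between these libraries, which may be technical. The labels name no Cre or promoter for the null allele and do not say whether animals were pooled.

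A sarcomere slides thin filaments of actin past thick filaments of myosin. Calcium binding to troponin C, held beside troponin T and the inhibitory troponin I on the actin filament, opens the filament to the myosin heads, and myosin-binding protein C sits along the thick filament and tunes how the heads engage. Heart, slow skeletal and fast skeletal muscle each use partly different genes for these proteins. Tnnc1, Tnnt2, Actc1 and Myh7 are also expressed in embryonic or slow skeletal muscle, whereas Tnni3, Mybpc3, Myl7 and Myh6 are known mainly from the heart.

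Levels are given as CPM, counts scaled to a fixed library total and adjusted with trimmed means over all libraries, and 3 counts, the least that a library can be read as holding, corresponded to 0.0622 to 0.213 CPM at library depths of 14.1 M to 48.2 M counts. This floor covers counting error only. The targeted gene followed its labels: Cdkn1b had 23.0 ± 3.10 CPM (SD, n = 4) in wild type and 4.56 ± 0.231 (n = 3) in null ovaries at E13.5, and 103 ± 13.1 against 13.0 ± 2.84 (n = 4 each) at E18.5, with no overlap at any of the 4 ages. Counts of Cdkn1b remained in null ovaries, above all after birth. At PND8 wild type had 147 ± 18.5 CPM (n = 4) and null 70.5 ± 8.39 (n = 3). At 12wk the values were 183 ± 70.1 (n = 4) and 50.2 ± 8.31 (n = 3). Of the genes that define heart muscle cells, Tnni3k was at 0 in all 29 libraries, Nkx2-5 in 28, Nppb in 25, Ckmt2 in 21 and Nppa in 17. Myl2 never passed 0.299 CPM and Myl3 never passed 0.748 CPM. These 7 genes were singled out after their values were seen, from lists of which other genes were well expressed: over all libraries Tpm1 averaged 412 CPM, Atp2a2 212 CPM, Smpx 42.9 CPM, Ryr2 30.2 CPM and Ttn 23.5 CPM. Gata4, which the ovary also uses, ran from 77.2 to 547 CPM. Of the ovary's own cells, granulosa markers summed to 454 to 6727 CPM and oocyte markers to 4.82 to 984 CPM over the 29 libraries.

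The regions before the starts of Tnni3 and Mybpc3 are shown because these genes rose together up to PND8. Promoters of all 8 genes (10 start sites) were found in RefSeq's table for GRCm38.p6. The 250 bases before each start were searched on both strands for GATAA, the GATA factor motif; CANNTG, the E-box; AAGGTCA, the nuclear receptor motif bound by SF-1; the CArG box of serum response factor; and the site of the MEF2 factors. Tnni3 is printed from chr7:4522529-4522694, minus strand, which leaves out the more distant 84 bases because they lie in an annotated exon of another Tnni3 transcript. Mybpc3 is printed from chr2:91117894-91118143, plus strand. Capitals mark matches.
Tnni3: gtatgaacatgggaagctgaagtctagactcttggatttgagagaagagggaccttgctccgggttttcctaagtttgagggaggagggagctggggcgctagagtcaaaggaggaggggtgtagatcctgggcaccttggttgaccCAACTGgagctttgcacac
Mybpc3: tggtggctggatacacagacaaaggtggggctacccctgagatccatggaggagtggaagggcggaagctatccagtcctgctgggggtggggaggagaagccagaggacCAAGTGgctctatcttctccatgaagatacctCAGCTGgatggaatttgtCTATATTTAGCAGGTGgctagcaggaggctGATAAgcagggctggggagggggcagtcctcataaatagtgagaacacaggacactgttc
The Tnni3 window held 1 E-box, CAACTG, starting 19 bases before the start, and no other motif searched. The Mybpc3 window held a MEF2 site, CTATATTTAG, 90 bases before the start, with an E-box directly after it, 2 further E-boxes and a GATAA motif. A MEF2 site occurred in 2.92% of 32851 promoter windows of the same length, GATAA in 22.6% and an E-box in 66.2%. CArG boxes, present in 1.47% of windows, were found before Actc1 and Myl7, which are known targets of serum response factor in the heart. AAGGTCA, present in 4.08% of windows, was before none of the 8 genes. A match describes letters in the window and does not show a bound site.

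At E13.5 a pair of wild-type libraries stood apart. In replicates 1 and 3 the 8 genes summed to 257 and 605 CPM, against 51.2 and 58.7 in replicates 2 and 4 and 34.4 to 51.3 in the 3 null libraries. Tnnt2, Tnnc1, Actc1 and Myh7, 4 of the 8 genes, were higher in both than in any of the other 5 libraries of that age. So were 949 of 15454 genes with a mean above 1 CPM, or 6.14%. The counts of this order in the lists below take every listed gene, with no limit on its mean. Among 18 skeletal-type sarcomere genes 15 showed that order, and among 6 skeletal myogenic factors (Myod1, Myf5, Myog, Pax7 and Mymk) 5 did. The order was not limited to skeletal genes. It held for 12 of 15 Z-disc and M-line genes, 8 of 16 cardiac calcium and energy genes and 7 of 17 cardiac transcription factors. Other cardiac filament genes showed it in 5 of 12 cases, smooth muscle genes in 3 of 12 and non-muscle paralogs in 0 of 10. The myogenic factors summed to 98.0 and 180 CPM in these libraries, against 1.2 and 8.40 in the other wild-type and 0.63 to 3.51 in the null libraries, and the skeletal sarcomere genes to 880 and 1386 CPM against 107 to 208 in the other 5. Red blood cell genes took 179400 CPM in replicate 3 and at most 9913 in the other 6. No granulosa marker of 11 was higher in both. Whether tissue beside the ovary entered these libraries was not tested. The E13.5 values of the 8 genes that these libraries enter are given below with and without them.

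**Figure D1:**
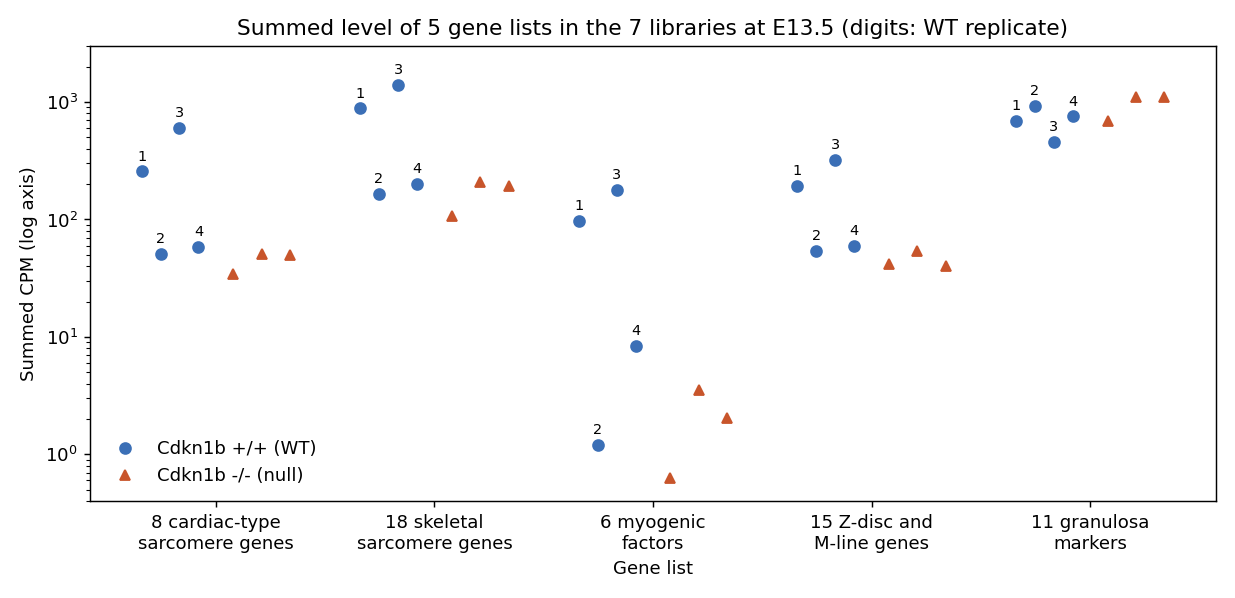
Summed CPM (log axis) of 5 gene lists in each of the 7 libraries at E13.5, wild type as circles with the replicate number and null as triangles. Wild-type replicates 1 and 3 lie above the other 5 libraries in the 4 muscle lists, while their granulosa sums, 694 and 454 CPM, are not above the others.

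Tnni3 (ENSMUSG00000035458, chromosome 7, 4518305 to 4524229, minus strand) rose up to PND8 in both genotypes. In wild-type ovaries it was at 8.50, 13.4, 5.69 and 10.3 CPM in replicates 1 to 4 at E13.5 and at 14.7, 15.3, 17.7 and 16.3 CPM at E18.5. By PND8 it had reached 99.7, 116, 166 and 113 CPM, and at 12wk it was at 155, 103, 273 and 214 CPM. The step across birth separated every library before it from every library after it, while the PND8 and 12wk libraries overlapped. By edgeR's quasi-likelihood test with Benjamini-Hochberg adjustment over all genes, Tnni3 rose by 0.75 (SE 0.237) on the log2 scale from E13.5 to E18.5 (adjusted p = 0.0321) and by 2.88 (SE 0.159) from E18.5 to PND8 (adjusted p = 1.93e-07). The log2 difference from PND8 to 12wk was 0.68 (SE 0.280, adjusted p = 0.0998), and it was called without 12wk replicate 2 (0.88, adjusted p = 0.017) and by DESeq2 (0.68, adjusted p = 0.0399). Without E13.5 replicates 1 and 3 the first step was 0.46 with an adjusted p of 0.149, and with single libraries left out it was 0.60 to 0.95. It missed the threshold when E13.5 replicate 1 or 4, or E18.5 replicate 3 or 4, was left out.

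In null ovaries Tnni3 was at 9.07, 15.6 and 14.2 CPM in the 3 E13.5 libraries and at 56.8, 61.4, 56.8 and 70.8 CPM in the 4 E18.5 libraries. It was at 153, 141 and 116 CPM at PND8 and at 174, 165 and 107 CPM at 12wk. The null E18.5 libraries thus lay between the wild-type levels of E18.5 and PND8, above every wild-type E18.5 library and below every wild-type PND8 library. Within null ovaries Tnni3 rose by 2.24 (SE 0.186) from E13.5 to E18.5 (adjusted p = 0.000135) and by 1.16 (SE 0.114) from E18.5 to PND8 (adjusted p = 6.62e-06), and the difference from PND8 to 12wk was 0.21 (SE 0.180, adjusted p = 0.427). The E18.5 libraries of both genotypes also entered the choice of Tnni3 and Mybpc3, so the age steps of these genes are not independent of that choice.

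The difference between null and wild type for Tnni3, which chose the list, was 1.89 on the log2 scale (SE 0.119) at E18.5, a 3.70-fold higher level with no overlap. The means were 61.5 ± 6.61 CPM in null and 16.0 ± 1.31 in wild type (SD, n = 4 each). At the other ages the genotypes overlapped, with log2 differences of 0.41 (SE 0.298) at E13.5, 0.14 (SE 0.160) at PND8 and -0.32 (SE 0.321) at 12wk. The gene's higher level in null ovaries was therefore seen at E18.5, the last age before birth.

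Several features of the locus bear on the Tnni3 count. The gene overlaps Dnaaf3 (a dynein arm assembly factor) by 1297 bases on the same strand, and 8 libraries had a fractional Tnni3 count. Dnaaf3 was low, between 1.40 and 18.4 CPM in all libraries, and in null ovaries it fell from 14.0 CPM at E13.5 to 3.17 CPM at E18.5 (log2 -2.14, adjusted p = 0.000449) while Tnni3 rose. Its genotype difference at E18.5 was -0.25 (adjusted p = 0.558). On the other side, 1922 bases away, lies Tnnt1, which encodes slow skeletal troponin T. In wild type Tnnt1 fell from 19.5 to 6.66 CPM between E18.5 and PND8 (log2 -1.62, adjusted p = 3.79e-06), the step at which Tnni3 rose most. Neither neighbour was called between genotypes at any of the 4 ages by edgeR.

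Mybpc3 (ENSMUSG00000002100, chromosome 2, 91118144 to 91136516, plus strand) was low before birth and rose after it. Wild-type libraries had 0.0924, 0.685, 1.5 and 0.626 CPM at E13.5 and 2.33, 2.42, 2.96 and 2.00 CPM at E18.5. They had 21.4, 13.8, 16.7 and 16.2 CPM at PND8, and 18.1, 22.8, 93.5 and 44.8 CPM at 12wk. The 12wk libraries were spread widely, with replicates 3 and 4 on top, the same 2 libraries that were highest for Tnni3. Summed oocyte markers, from 1 of 16 lists, were 111 and 35.6 CPM in these libraries and 14.6 and 8.62 CPM in replicates 1 and 2. Null 12wk libraries had oocyte sums of 4.82 to 8.37 CPM with Mybpc3 at 22.9 to 35.6 CPM. At PND8 the sums were 182 to 695 CPM in wild type, with Mybpc3 at 13.8 to 21.4 CPM. In null PND8 libraries they were 431 to 984 CPM, with Mybpc3 at 31.8 to 47.3 CPM. The part of oocyte content in the Mybpc3 levels was not tested.

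The wild-type log2 steps of Mybpc3 were 1.75 (SE 0.612, adjusted p = 0.0482) from E13.5 to E18.5, 2.75 (SE 0.210, adjusted p = 1.22e-06) to PND8 and 1.47 (SE 0.479, adjusted p = 0.0459) to 12wk. The step across birth held in every alternative fit. With single libraries left out the first step was 1.36 to 2.40 and passed the threshold only without E13.5 replicate 3. The last step was 0.83 to 1.73 and passed only without 12wk replicate 1 or 2, with the lowest value when replicate 3 was left out. Without E13.5 replicates 1 and 3 the first step was 1.91 (adjusted p = 0.0111).

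Null libraries held 0.50, 1.74 and 0.799 CPM of Mybpc3 at E13.5, and 4.61, 3.94, 5.55 and 5.02 CPM at E18.5. At PND8 they held 47.3, 39.6 and 31.8 CPM, and at 12wk 30.4, 35.6 and 22.9 CPM. At E18.5 and at PND8 each null library exceeded each wild-type library, and at E13.5 and 12wk the genotypes overlapped. The log2 differences were 0.92 (SE 0.231, 1.90-fold) at E18.5 and 1.21 (SE 0.177, 2.31-fold) at PND8, against 0.45 (SE 0.799) at E13.5 and -0.58 (SE 0.536) at 12wk. These differences belong to the choice of the gene. Within null ovaries Mybpc3 rose by 2.20 (SE 0.415, adjusted p = 0.00457) from E13.5 to E18.5 and by 3.05 (SE 0.159, adjusted p = 7.3e-08) from E18.5 to PND8, and the last step was -0.32 (SE 0.177, adjusted p = 0.217). Its neighbours Spi1, a myeloid transcription factor 2387 bases away, and Madd, 843 bases away, were not called between genotypes at any of the 4 ages by edgeR.

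**Figure D2:**
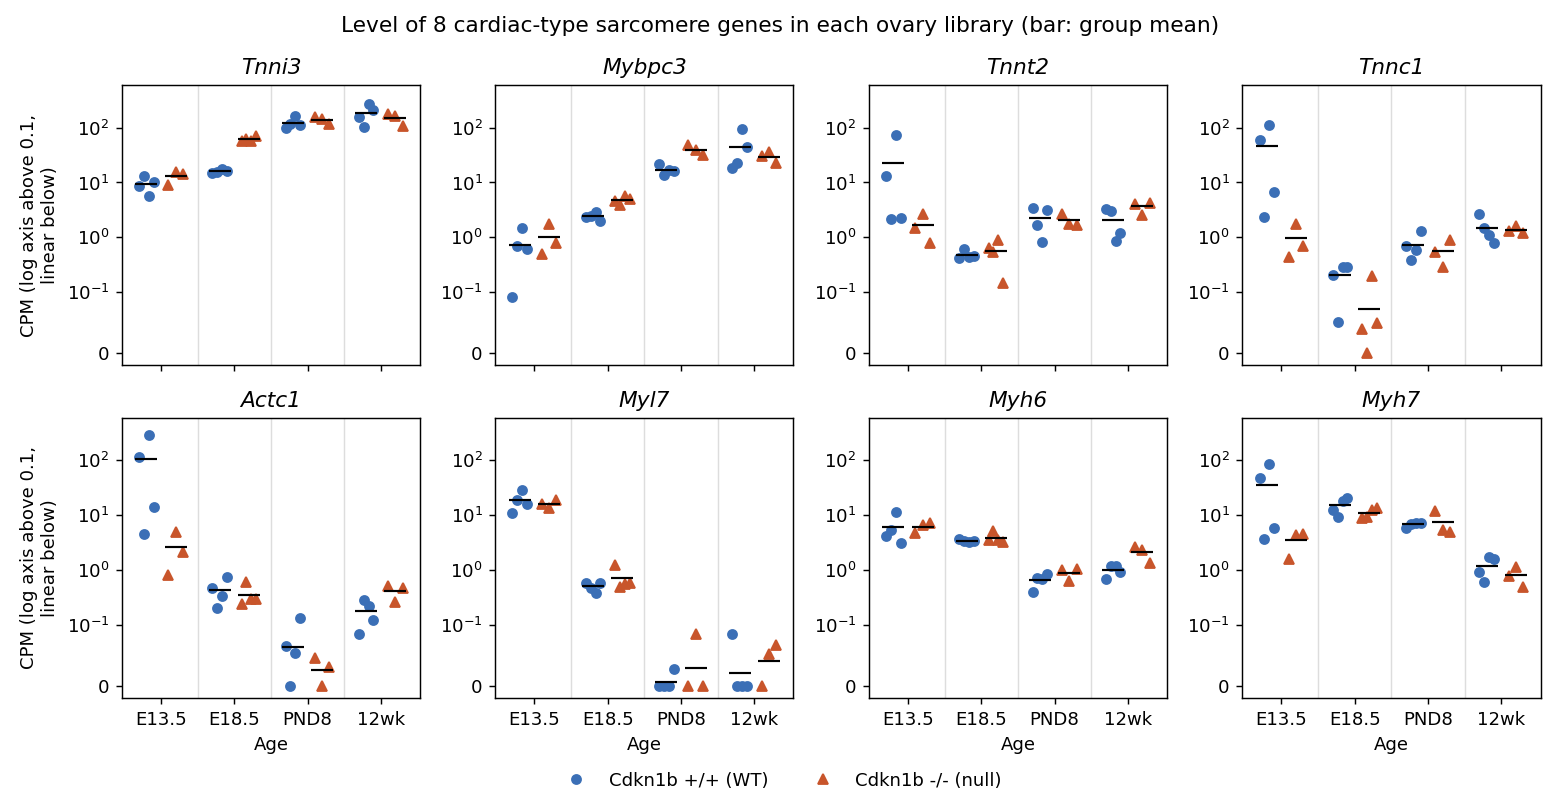
CPM of each of the 8 genes in each of the 29 libraries (log axis above 0.1 CPM and linear below), wild type as circles and null as triangles, with the group mean as a bar. Tnni3 and Mybpc3 climb up to PND8 in both genotypes, and Myl7 declines. At E18.5 the 4 null libraries lie above the 4 wild-type libraries for Tnni3 and Mybpc3.

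The troponin partners of Tnni3 did not share its rise from E13.5 to E18.5, though Tnnt2 also rose across birth. Tnnt2 (chromosome 1, 135836354 to 135852260), the cardiac troponin T gene, had 13.4, 2.17, 73.0 and 2.28 CPM in the 4 wild-type E13.5 libraries and 1.5, 2.65 and 0.799 CPM in the null ones. At E18.5 it was between 0.414 and 0.618 CPM in wild type and between 0.148 and 0.893 CPM in null, and after birth between 0.833 and 4.26 CPM in all 14 libraries of both genotypes. Tnnt2 fell by 5.59 (SE 1.32) on the log2 scale from E13.5 to E18.5 in wild type (adjusted p = 0.0125), and by 2.16 (adjusted p = 0.00695) without replicates 1 and 3. It rose by 2.16 (SE 0.479, adjusted p = 0.00196) from E18.5 to PND8 in wild type and by 1.87 (SE 0.475, adjusted p = 0.00467) in null. The other Tnnt2 steps missed the threshold, at -1.56 (SE 0.595, adjusted p = 0.0751) from E13.5 to E18.5 in null, and at -0.03 (SE 0.559, adjusted p = 0.973) in wild type and 0.95 (SE 0.344, adjusted p = 0.0801) in null from PND8 to 12wk. The last of these was called without null 12wk replicate 3 (1.17, adjusted p = 0.0396) and by DESeq2 (0.94, adjusted p = 0.0423).

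Tnnc1 (chromosome 14, 31208312 to 31211729), which encodes the troponin C of heart and slow skeletal muscle, lies wholly inside Nisch on the opposite strand. Nisch ran from 190.3 to 742 CPM. The strand setting of the counting is not given, and Tnnc1 had a fractional count in 0 libraries. Whether reads of Nisch entered the Tnnc1 count was not tested. Tnnc1 had 60.1, 2.34, 113 and 6.84 CPM in wild-type E13.5 libraries and 0.438, 1.78 and 0.692 CPM in null ones, with no overlap. It was at most 0.291 CPM in the 8 E18.5 libraries and between 0.285 and 2.61 CPM after birth. In wild type it fell by 7.73 (SE 1.52) between E13.5 and E18.5 (adjusted p = 0.00614), or by 4.35 (adjusted p = 0.00152) without replicates 1 and 3. Across birth it was too low to test with all libraries, with wild-type means of 0.210 CPM at E18.5 and 0.738 CPM at PND8. With 1 library left out, 6 to 8 of the 8 genes were called at that wild-type step, so Tnnc1 was called in some fit. Its steps from PND8 to 12wk were 1.08 (SE 0.486, adjusted p = 0.125) in wild type and 1.38 (SE 0.469, adjusted p = 0.0663) in null. The null step was called without PND8 replicate 4 (1.84, adjusted p = 0.0494) and by DESeq2 (1.39, adjusted p = 0.0468).

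Actc1 (chromosome 2, 114047282 to 114053548), the cardiac actin gene, was the most affected by the pair of libraries that stood apart, with 112, 4.51, 286 and 13.9 CPM in wild type at E13.5. Null libraries of that age had 0.813, 4.89 and 2.13 CPM. From E18.5 on it never passed 0.748 CPM in either genotype. Its step from E13.5 to E18.5 was -7.88 (SE 1.64, adjusted p = 0.00967) in wild type, -4.31 (adjusted p = 0.00107) without replicates 1 and 3, and -2.88 (SE 0.613, adjusted p = 0.0079) in null.

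Myl7 (chromosome 11, 5896637 to 5898782), the atrial regulatory light chain gene, showed no such split at E13.5. It had 11.1, 19.1, 28.5 and 15.8 CPM in wild type and 15.8, 13.7 and 19.3 CPM in null, and the genotypes overlapped. At E18.5 all 8 libraries lay between 0.388 and 1.21 CPM. The step was -5.21 (SE 0.373, adjusted p = 1.48e-05) in wild type, -5.07 (adjusted p = 4.14e-05) without replicates 1 and 3, and -4.49 (SE 0.342, adjusted p = 8.69e-05) in null. After birth Myl7 was at 0.0856 CPM or less in all 14 libraries, with 11 counts in total, which is at or under the floor. It was called lower at PND8 than at E18.5 in both genotypes (adjusted p = 3.66e-05 in wild type and 0.00101 in null), and no fold is given against so few counts.

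The cardiac myosin heavy chain genes, Myh6 (alpha, chromosome 14, 54941921 to 54966927) and Myh7 (beta, chromosome 14, 54970684 to 54994626), are neighbours and near copies. Of all 100-base windows of the Myh6 transcript 11.4% occur in Myh7, and 28 and 29 of the 29 libraries had fractional counts of these genes. A fractional count shows that RSEM divided reads, though not between which genes. In the single coding transcript searched for each, the other 6 genes shared no 100-base window with any other gene. Their remaining exons were not searched. The longest stretch identical in both coding sequences is 245 bases, at coding positions 4246 to 4490 of Myh6 and 4240 to 4484 of Myh7 in GENCODE M21, in the part that encodes the coiled-coil rod. It is shown because reads from it cannot be assigned to either gene.
Myh6 and Myh7: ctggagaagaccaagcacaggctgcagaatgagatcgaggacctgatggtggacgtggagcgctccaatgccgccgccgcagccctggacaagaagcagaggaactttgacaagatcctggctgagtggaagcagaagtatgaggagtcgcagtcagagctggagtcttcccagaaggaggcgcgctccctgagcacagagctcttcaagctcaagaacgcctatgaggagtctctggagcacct

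Myh6 was at 3.12 CPM or more in each library before birth and lower in each after it. It ran from 3.12 to 11.6 CPM in wild type and from 4.69 to 7.06 CPM in null at E13.5, and from 3.20 to 5.12 CPM in the 8 libraries of E18.5. Its step between these ages was -0.83 (SE 0.404, adjusted p = 0.138) in wild type, -0.25 (adjusted p = 0.608) without replicates 1 and 3, and -0.69 (SE 0.263, adjusted p = 0.0754) in null. The null step was called without E13.5 replicate 1 (-0.86, adjusted p = 0.039) and by DESeq2 (-0.73, adjusted p = 0.0404). At PND8 it was between 0.391 and 1.05 CPM in both genotypes. From E18.5 to PND8 it fell by 2.42 (SE 0.291, adjusted p = 2.89e-05) in wild type and by 2.11 (SE 0.317, adjusted p = 0.000153) in null. At 12wk wild-type libraries had 0.679, 1.17, 1.16 and 0.911 CPM and null libraries 2.61, 2.35 and 1.34 CPM, with no overlap and a log2 difference of 1.11 (SE 0.349). Null Myh6 rose by 1.33 (SE 0.387, adjusted p = 0.0397) from PND8 to 12wk, a call that held without 12wk replicate 4 and was lost when any other single library was left out, with values of 1.14 to 1.56.

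Myh7 had 47.0, 3.73, 85.1 and 5.86 CPM in wild type at E13.5 and 1.61, 4.27 and 4.6 CPM in null. At E18.5 it had 12.4, 9.06, 18.0 and 20.7 CPM in wild type and 8.70, 9.20, 12.2 and 13.8 CPM in null. At PND8 wild-type libraries lay between 5.88 and 7.27 CPM, and the null ones had 11.8, 5.42 and 4.92 CPM. At 12wk Myh7 was between 0.485 and 1.70 CPM in all 7 libraries. The wild-type step from E13.5 to E18.5 was -1.27 (SE 0.929, adjusted p = 0.331), and without replicates 1 and 3 it turned to 1.69 (adjusted p = 0.0132). In null ovaries Myh7 rose by 1.63 (SE 0.350, adjusted p = 0.00818) over the same days. It then fell in wild type by 1.23 (SE 0.248, adjusted p = 0.00107) to PND8 and by 2.41 (SE 0.324, adjusted p = 0.000966) to 12wk, and in null by 3.09 (SE 0.470, adjusted p = 0.00419) from PND8 to 12wk. The null step from E18.5 to PND8 was -0.57 (SE 0.309, adjusted p = 0.114), and without PND8 replicate 1 it was -1.06 (adjusted p = 0.00305). Myh7 also overlaps the antisense gene Mhrt, whose group means did not pass 2.30 CPM.

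**Figure D3:**
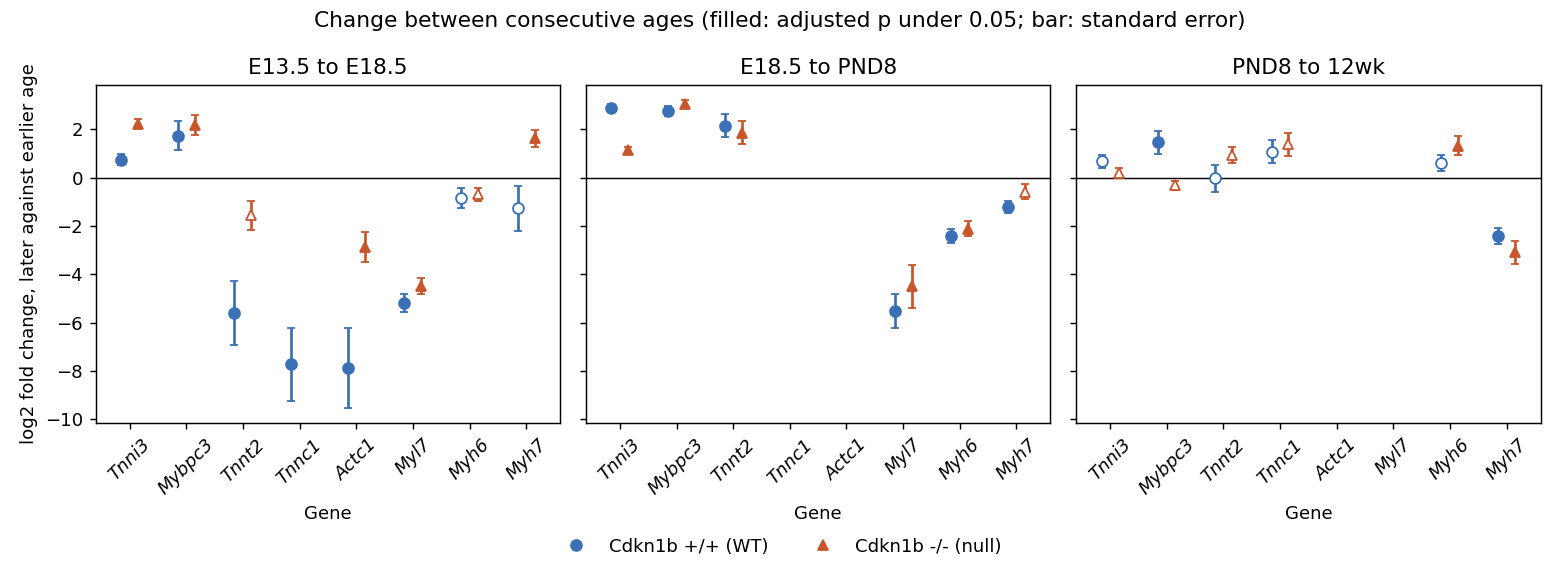
Log2 fold change of each tested gene between consecutive ages in wild type (circles) and null (triangles), with the standard error as a bar and filled symbols for adjusted p under 0.05. Tnni3 and Mybpc3 rise at the first 2 steps in both genotypes, and Myl7 falls at both, while genes too low for the filter have no symbol.

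Set against all genes, the age steps of the 8 genes read as follows. From E13.5 to E18.5 in wild type all 8 passed the filter on low counts, and 2 were called higher (Tnni3 and Mybpc3) and 4 lower (Tnnt2, Tnnc1, Actc1 and Myl7), where 16.6% of 16603 genes were called higher and 17.5% lower. Without replicates 1 and 3 the count was also 6, with Myh7 called higher and Tnni3 not called. From E18.5 to PND8, 6 passed the filter and all 6 were called, 3 higher (Tnni3, Mybpc3 and Tnnt2) and 3 lower (Myl7, Myh6 and Myh7), beside 37.6% and 36.9% of 17421 genes. From PND8 to 12wk, 1 of 6 was called higher (Mybpc3) and 1 lower (Myh7), beside 16.1% and 14.3% of 17293 genes. A gene passed the filter at some steps only through the age at which it was high, so these counts do not stand for all 8 genes.

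In null ovaries 3 of 7 tested genes were called higher from E13.5 to E18.5 (Tnni3, Mybpc3 and Myh7) and 2 lower (Actc1 and Myl7), beside 15.8% and 14.5% of 16598 genes. From E18.5 to PND8, 3 of 6 were called higher (Tnni3, Mybpc3 and Tnnt2) and 2 lower (Myl7 and Myh6), beside 38.9% and 38.5% of 17245 genes. From PND8 to 12wk, 1 of 6 was called higher (Myh6) and 1 lower (Myh7), beside 14.8% and 14.3% of 17437 genes. The 8 genes thus included both directions at each of the 6 steps.

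Between genotypes, 0 of 8 tested genes were called by edgeR at E13.5, with 4 at an unadjusted p under 0.05 and 2 by DESeq2, beside 0.00606% of 16508 genes. At E18.5, 2 of 6 tested genes were called (Tnni3 and Mybpc3), beside 4.99% of 16322 genes. At PND8, 1 of 6 was called (Mybpc3), beside 0.349% of 17785 genes, and at 12wk 0 of 6, with 1 at an unadjusted p under 0.05 and 0 by DESeq2, beside 0.0115% of 17396 genes. Genotypes did not overlap for 1, 2, 1 and 1 tested genes at the 4 ages in that order, and the same held for 3.79%, 15.8%, 13.7% and 8.86% of all genes tested. The shares called are those of edgeR, and DESeq2 called more of all genes at each age. Since the list was chosen on this contrast, nothing is read from these counts. Under a block on replicate number the count at E18.5 was 1, Mybpc3 being no longer called. Leaving out any single library but wild-type replicate 2 at E18.5, or any but wild-type replicate 1 at PND8, also took Mybpc3 over the threshold. Over all fits with 1 library left out, its log2 differences were 0.84 to 1.04 and 1.07 to 1.36.

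The E13.5 genotype differences of 4 genes were much smaller without wild-type replicates 1 and 3. Log2 differences between null and wild type were -3.88 (SE 1.42) for Tnnt2, -5.59 (SE 1.53) for Tnnc1, -5.38 (SE 1.60) for Actc1 and -3.43 (SE 1.18) for Myh7. Without these libraries they were -0.40, -2.19, -1.77 and -0.42, which leaves Tnnc1 and Actc1 the farthest below 0. Tnnc1 in replicates 2 and 4 lay above each null library, and Actc1 overlapped. Values of Myl7 and Myh6 were -0.26 (SE 0.334) and -0.05 (SE 0.476) with the pair, and -0.07 and 0.58 without it. Tnni3 and Mybpc3 were higher in null by 0.41 and 0.45 with all libraries and by 0.15 and 0.66 without the pair.

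**Figure D4:**
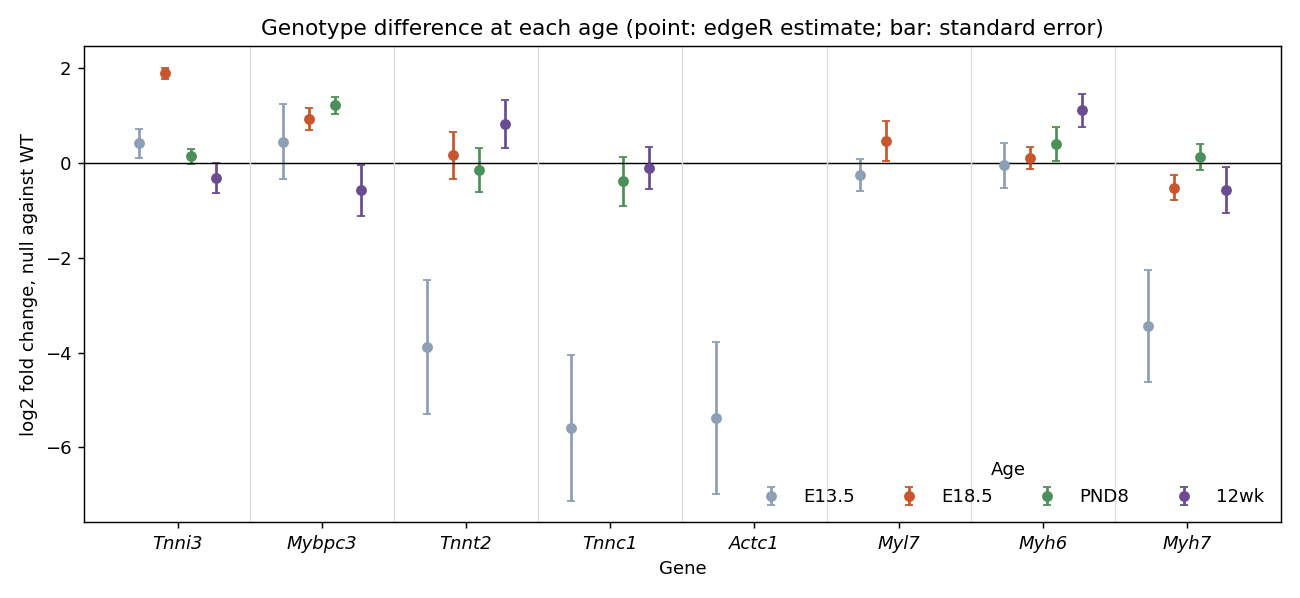
Log2 fold change of null against wild type for each tested gene at each age, with the standard error as a bar. The 4 values far below 0 at E13.5 (Tnnt2, Tnnc1, Actc1 and Myh7) become -0.40, -2.19, -1.77 and -0.42 without wild-type replicates 1 and 3, and the values farthest above 0 are Tnni3 at E18.5 (1.89), Mybpc3 at PND8 (1.21) and Myh6 at 12wk (1.11).

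Whether the genotype difference changed with age was tested by an interaction over all libraries, which called 0.806% of 20359 genes. Of the 8 genes 1 was called, Tnni3, from which nothing is read because the genotype contrast chose it. Adjusted p-values of the 6 genes other than Tnni3 and Mybpc3 were 0.159 for Tnnt2, 0.0615 for Tnnc1, 0.0743 for Actc1, 0.784 for Myl7, 0.553 for Myh6 and 0.198 for Myh7. DESeq2 called 5 of the 8 genes, adding Tnnt2, Tnnc1, Actc1 and Myh7. It also called more of all genes than edgeR did. In edgeR Tnnc1 and Actc1 were called without E13.5 wild-type replicate 2 (adjusted p = 0.00995 and 0.00947) or 4 (0.0255 and 0.0283), Myh7 without replicate 2 (0.0398), and Tnnc1 without 12wk wild-type replicate 1 (0.0499). Without E13.5 wild-type replicates 1 and 3 the adjusted p-values of these 4 in edgeR were 0.764, 0.478, 0.329 and 0.834.

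Per kilobase of exon, which allows genes to be compared with each other, the order of the 8 genes turned over between E13.5 and E18.5. In wild type at E13.5 Actc1 made up 42.2% of the 8-gene sum of CPM per kilobase, Tnnc1 28.8%, Myl7 20.7% and Tnni3 3.01%. Myl7 led in wild-type replicates 2 and 4, with 71.1% and 55.1% of their sums, and in the 3 null libraries, with 61.5% to 80.4%. In both genotypes Tnni3 was first from E18.5 on.

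Tnni3 held 60.3% to 69.9% of the sum in the 4 wild-type E18.5 libraries and 84.7% to 88.3% in the 4 null ones. After birth its share was between 84.3% and 93.4% in all 14 libraries. Mybpc3 was second after birth in each group, at 6.19% and 12.2% of the group means' sum at PND8 and 10.5% and 8.72% at 12wk in wild type and null. These shares depend on the length taken for Tnni3, and with the longest transcript in place of merged exons they were 2.86%, 5.85%, 4.95% and 4.09%, still second. Its level at PND8 was 4.09 ± 0.766 CPM per kilobase (n = 4) in wild type, against 60.0 ± 14.0 for Tnni3. Below Mybpc3 the neighbours in the wild-type PND8 order, Myh7 at 0.784 ± 0.0709 and Tnnc1 at 0.709 ± 0.375, did not differ beyond their spread. The troponin partners stayed far below Tnni3 there, Tnnc1 and Tnnt2 holding 1.07% and 0.441%.

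**Figure D5:**
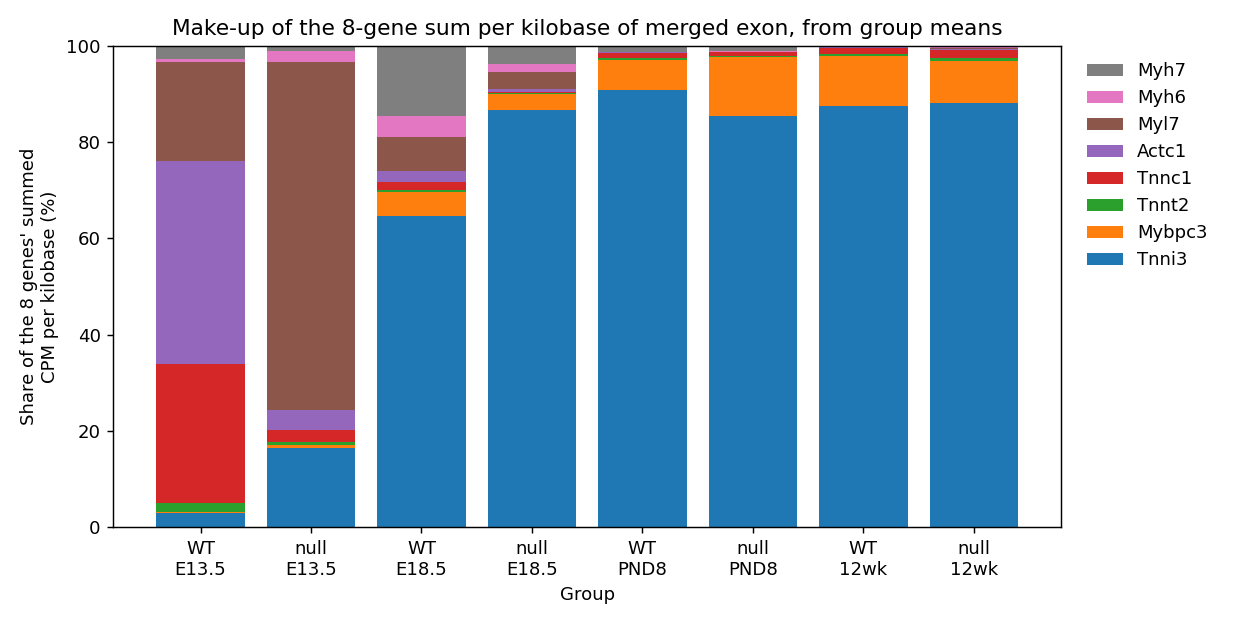
Share of each gene in the summed CPM per kilobase of the 8 genes, from group means, for the 8 groups in order of age. Actc1, Tnnc1 and Myl7 make up most of the E13.5 wild-type bar and Myl7 most of the E13.5 null bar, and Tnni3 takes 64.7% to 90.9% of every later bar.

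The genes whose course over the 29 libraries was nearest to that of Tnni3, by the root mean square distance between centred log2 CPM profiles among 13880 genes, were Gcnt4 (0.50), Icosl (0.54), Slc9a7 (0.58), Egfr (0.58) and Jam2 (0.59). Gcnt4 had wild-type means of 0.464, 1.29, 8.81 and 18.2 CPM in order of age, and a null mean of 3.22 CPM at E18.5. Nearest to Mybpc3 were Kcnj3 (0.58), Mctp1 (0.61), Fam13a (0.61), Ltbp3 (0.64) and Lrba (0.64). Tnni3 was number 11 in the order around Mybpc3, and Mybpc3 number 40 around Tnni3, both at a distance of 0.69. The other 6 sarcomere genes lay at 2.31 or more from Tnni3 and at 2.48 or more from Mybpc3. These distances describe profiles over libraries that share age and depth, and no test is attached. Tnni3 and Mybpc3 were both chosen for higher values in null ovaries, and that choice also enters the distance between them.

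Genes of related structures were followed from fixed lists. Between genotypes at E18.5, 0 of 7 tested other cardiac filament genes, 0 of 7 Z-disc and M-line genes, 0 of 9 genes of cardiac calcium handling and energy use, 0 of 10 skeletal sarcomere genes and 0 of 10 non-muscle actin, myosin and tropomyosin genes were called by edgeR. At an unadjusted p under 0.05 there were 0, 0, 3, 1 and 1 of these, and DESeq2 called 0, 0, 2, 0 and 0. Of 11 tested cardiac transcription factors Myocd, the smooth and cardiac muscle coactivator, was called lower (log2 -0.75, adjusted p = 0.0237). Of 12 smooth muscle genes Mylk, the myosin light chain kinase, was called lower (log2 -0.56, adjusted p = 0.0338). In these 2 lists 3 and 4 genes had an unadjusted p under 0.05, and DESeq2 called 2 and 4. Of all genes tested 4.99% were called by edgeR at this age, and DESeq2 called more of them. Median log2 differences of these lists ran from -0.43 to 0.21, beside -0.04 over all genes tested.

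Some of these genes moved with age. Atp2a2, the calcium pump of the sarcoplasmic reticulum, rose from 50.1 CPM at E18.5 to 365 CPM at PND8 in wild type (log2 2.79, adjusted p = 2.92e-06). Ryr2, the calcium release channel, rose from 15.7 to 64.9 CPM (log2 1.97, adjusted p = 4.52e-05). Of the 16 calcium and energy genes 8 were tested at this step, with 7 called higher and 1, Smpx, called lower, falling from 101.5 to 3.13 CPM (log2 -5.08, adjusted p = 1.27e-07). Of all genes 37.6% were called higher and 36.9% lower at this step. The median log2 change of the 8 was 2.14, beside 0.01 over all genes. In null ovaries 6 of 9 were called higher and 2 lower, beside 38.9% and 38.5% of all genes.

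Other filament genes moved in both directions from E18.5 to PND8 in wild type. Of 8 tested cardiac filament genes 2 rose (Tpm1 and Myh7b) and 4 fell (Mylk3, Ttn, Mybphl and Tmod1), with a median of -0.72, beside 37.6% and 36.9% of all genes and a median of 0.01. Tpm1, an alpha-tropomyosin that many cell types use, was the most abundant, at 333 and 594 CPM. Ttn, the giant spring protein of the sarcomere, went from 5.91 to 1.44 CPM (log2 -2.13, adjusted p = 0.046). Among Z-disc and M-line genes Myom1 rose, from 1.07 to 7.66 CPM (log2 2.75, adjusted p = 0.000764), and Nrap fell (log2 -2.27, adjusted p = 0.000123). Of 11 skeletal sarcomere genes 7 fell and 0 rose by edgeR (7 changed at an unadjusted p under 0.05 and 7 by DESeq2), where 36.9% of all genes fell, among them Tnni1, slow skeletal troponin I, by 3.12 (adjusted p = 1.52e-06). Tnni3 and Tnni1 thus moved in opposite directions across birth.

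Cell type markers moved beside the genotype values of Tnni3 and Mybpc3. The 11 granulosa markers summed to 1422 to 1735 CPM in the wild-type and 1804 to 2195 CPM in the null E18.5 libraries. Of 10 tested, 3 were called higher in null, beside 4.99% of all genes called in either direction. They were Cyp19a1 (log2 2.51, adjusted p = 0.016), Hsd17b1 (2.03, adjusted p = 0.0059) and Inha (1.14, adjusted p = 0.00795). At PND8 the sum was 3575 to 4570 CPM in wild type and 4432 to 4755 CPM in null. There 1 of 11 was called higher (Kitl, log2 0.87, adjusted p = 0.0473), beside 0.349% of all genes called in either direction. Of the 11, 8 had an unadjusted p under 0.05, and DESeq2 called 7. The share of all genes at an unadjusted p under 0.05 is not given here. Over all genes DESeq2 also called more than edgeR at this age, as given in the last section. Genotypes did not overlap for 7 of the 11 markers, beside 13.7% of all genes tested. The median log2 difference was 0.49, beside 0.00 over all genes. Of 10 theca and stromal markers at E18.5 Hsd3b1 was called higher and Tcf21 and Nr2f2 lower, and at PND8 Pdgfra was called lower, beside the same shares of all genes. Oocyte and fetal germ cell markers had median log2 differences of -0.38 and -0.62 at E18.5, with 0 of 7 and 0 of 5 tested called. The part of these markers in the Tnni3 and Mybpc3 values was not tested, and in whole-ovary RNA fewer cells of a type and less RNA per cell cannot be told apart.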

How the data were processed

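RNA of dissociated ovary cells was sequenced in 29 samples. The deposited values are expected counts per gene that the authors made with RSEM, per the file headers. The submitters' processing notes name Trim Galore, FastQC 0.11.5, STAR 2.5.2 and RSEM 1.3.0. The genome build, annotation, library kit and strand setting are not given in the sources used here. The file header names a folder of 2 combined projects without a map of samples. Positions are from GENCODE M21 on GRCm38 and may not be the authors' annotation.

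Expected counts were rounded and tested with edgeR 4.0.16 (R 4.3.3): filterByExpr (minimum count 10, total 15), TMM scaling, robust quasi-likelihood fits of the 2 groups compared, and Benjamini-Hochberg adjustment over all genes tested. Called means an adjusted p under 0.05. Standard errors are the log2 fold change divided by the square root of F. On simulated counts for the E18.5 genotype contrast, 61.2% of genes changed by a log2 size of 1 and 95.6% by a size of 2 were recovered. For the E13.5 genotype contrast these shares were lower, at 39.4% and 65.6%. For the wild-type step from E18.5 to PND8 they were 60.6% and 90.7%. Alternatives were RLE size factors, no filter, DESeq2 1.42.0, the replicate number as a block, each replicate left out, the longest transcript as the length and, chosen after seeing the data, wild-type E13.5 replicates 1 and 3 both left out. The labels share replicate numbers between groups. Deviations of same-numbered libraries from their group means correlated above 0.1 in all 4 pairs between genotypes at E18.5 (0.102 to 0.261) and all 3 pairs of the null step from E13.5 to E18.5 (0.17 to 0.22), but not in every pair of the other 8 comparisons. All 39 within-group pairs differed beyond sampling noise (chi-square per degree of freedom 12.99 to 284.76).

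The 8 genes, the 16 lists of related genes and cell type markers, and the tests were chosen with earlier results of these data known. Named genes were the 8, Cdkn1b, the most abundant 3 of a list and those called where at most 5 were, the 5 nearest profiles to Tnni3 and Mybpc3 (mean of at least 1 CPM), and their neighbours. The rule's genes are given where a result turns on them.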

Additional observations from a re-analysis of the deposited data

Results flagged for a closer look

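In 6 of 40 groups of 4 libraries 1 library lay far from the other 3, and chance alone flags about 1 group in 20. Tnnt2 was at 73.0 CPM in wild-type replicate 3 at E13.5, where the next library had 13.4 CPM, and this is a library that stood apart for muscle genes in general. Null replicate 2 at E18.5 was highest for Actc1 (0.593 CPM, next 0.297) and for Myh6 (5.12 CPM, next 3.52). Null replicate 1 at E18.5 was highest for Myl7 (1.21 CPM, next 0.591). Myl7 was at 0.0269 CPM in wild-type replicate 4 at PND8 and at 0.0851 CPM in wild-type replicate 1 at 12wk, with 0 in the other 3 libraries of each group, all at or under the level of 3 counts. None of the 6 flags fell on Tnni3 or Mybpc3.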

How the results depend on the processing

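Of 451 alternative values for the age steps of the 8 genes, 407 kept their direction and their side of the threshold, 30 lost the call, 9 gained one and 5 changed sign. The changes of sign were Myh7 from E13.5 to E18.5 in wild type, 1.69 without both replicates 1 and 3, and Tnnt2 from PND8 to 12wk in wild type, -0.35 to 0.25 when 1 library was left out (-0.03 with all). The number of the 8 genes called between genotypes was 2 by DESeq2 at E13.5 (0 in edgeR). At E18.5 it was 1 without the filter and 1 with the replicate block (2 in edgeR), and 1 to 2 when 1 library was left out. At PND8 it was 0 with the block (1 in edgeR) and 0 to 1 with 1 library out. From PND8 to 12wk it was 1 without the filter, 1 with the block and 1 to 3 with 1 library out in wild type, and 4 by DESeq2, 1 with the block and 1 to 3 with 1 library out in null (2 in each in edgeR). For the interaction it was 5 by DESeq2 and 1 to 4 with 1 library out (1 in edgeR). With 1 library out it was 4 to 6 from E13.5 to E18.5 and 6 to 8 from E18.5 to PND8 in wild type, and 5 to 7 and 5 to 6 in null, and 0 to 0 between genotypes at E13.5 and 12wk. The cause was not tested. The replicate block changed no other count by over 1.5 times. Single age steps not called under it were Tnni3 from E13.5 to E18.5 (0.80, adjusted p = 0.0578) and Mybpc3 from PND8 to 12wk (adjusted p = 0.112) in wild type, and Myh6 from PND8 to 12wk in null (1.32, adjusted p = 0.0965), in comparisons whose numbers were not shown to pair libraries. Mybpc3 from E13.5 to E18.5 in wild type had an adjusted p of 0.0502 with RLE factors. Without the filter, adjusted p was 0.0522 for Tnnt2 over the same step, 0.154 for Mybpc3 from PND8 to 12wk in wild type and 0.0618 for Myh6 in null.

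Over all genes, DESeq2 called 65, 1685, 824 and 326 between genotypes at the 4 ages in order, where edgeR called 1, 814, 62 and 2. Without the filter edgeR called 258 at PND8 and 12 at 12wk, and with the block 8 and 10. With 1 library out the counts were 0 to 1, 246 to 1372, 0 to 147 and 0 to 3, and 2642 to 5129 for null from PND8 to 12wk (5071 with all). The interaction called 164 in edgeR, 706 by DESeq2 and 72 to 235 with 1 library out. Scaling moved the median of all genes by less than 0.1 on the log2 scale. With the longest transcript as length, Tnni3 held 77.3% and 92.8% of the 8-gene sum per kilobase at E18.5 in wild type and null. Counts at or under 3 per library limit what can be said of Myl7 and Actc1 after birth.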
